A study of Homo sapiens with 9 samples.

Results

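The replication-dependent histone genes encode the bulk of the histones that package newly made DNA. They were taken as the rows of the deposited tables whose symbol starts with HIST1H, HIST2H, HIST3H or HIST4H, leaving out 15 rows named as pseudogenes. This gave 74 genes of 60623. The HIST1 cluster on chromosome 6 holds 55 of them, 14 carry a HIST2 symbol, HIST3 holds 4 and HIST4 holds 1. Of the 14, 13 lie in the HIST2 cluster on chromosome 1, and HIST2H2BA lies apart from it on the same chromosome. By product there are 6 linker histone H1 genes, 17 H2A genes, 22 H2B genes, 14 H3 genes and 15 H4 genes. The file's own descriptions call 4 of the 74 pseudogenes, namely HIST2H2BA, HIST2H2BC, HIST2H2BD and HIST3H2BA.

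RNA was sequenced from 22Rv1 cells, a human prostate carcinoma epithelial line, in 9 libraries. In all of them PDCD4, an inhibitor of the translation initiation helicase EIF4A, had been depleted with a short hairpin RNA and 1 form of the protein was put back. The S239D form (3 libraries) carries aspartate, which mimics a phosphate, the S239A form (3 libraries) carries alanine, which cannot be phosphorylated, and the WT form (3 libraries) is unchanged. The study asked about phosphorylation of PDCD4 by the kinase PLK1 in resistance to the antiandrogen enzalutamide. The titles of the S239D libraries spell the variant S23D, while their genotype label reads S239D. Parental cells and knockdown-only cells were not analysed here. Separate cultures or clones behind the 3 libraries of a form are not named in the labels, so a p-value here reflects library-to-library spread alone, which may be technical.

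In S phase the histone genes are transcribed together under NPAT, and their pre-mRNA is cut just after a short stem-loop in the 3' untranslated region. The stem-loop binding protein SLBP holds the stem-loop, the mature mRNA ends there with no poly(A) tail, and the mRNA is degraded when replication stops. The same genes can also give polyadenylated mRNA, when cleavage happens at a poly(A) signal further downstream, as is known in differentiating cells and when stem-loop processing is impaired. The libraries were made from RNA selected on poly-T beads, so the values below describe histone RNA recovered in that fraction and not the total histone mRNA of the cells.

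The stem-loop is the sequence on which this biology turns. A search of the GENCODE 29 transcripts for the letters GGNNNTTNTNAGNNCC, on the transcript strand, found it in 35 of the 74 genes (47.3%), against 612 of 58676 GENCODE 29 genes (1.04%). The annotated models of the others hold no match, which says only that these letters are not in those models, many of which stop at the coding end. There were 6 versions of the 16 letters, and the commonest was in 18 genes. It is shown for 8 genes that carry the results below, with 5 bases on either side, and the stem-loop is in capitals. The HIST1 genes lie on chromosome 6 and the others on chromosome 1.
HIST1H2BN: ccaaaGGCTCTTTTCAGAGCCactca
HIST1H2AC: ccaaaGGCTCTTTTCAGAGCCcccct
HIST1H3E: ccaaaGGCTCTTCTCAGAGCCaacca
HIST1H4H: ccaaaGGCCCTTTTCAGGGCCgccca
HIST2H4A: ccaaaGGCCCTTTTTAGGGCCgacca
HIST2H2BC: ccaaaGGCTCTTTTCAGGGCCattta
HIST2H2BE: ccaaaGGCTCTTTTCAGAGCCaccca
HIST3H2A: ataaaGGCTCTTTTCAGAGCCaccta

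What follows the stem-loop differed between models. In 25 genes at least 1 annotated transcript ran 100 bases or more past it, and these genes took 81.1% of all histone counts. In HIST1H4H it ran 1655 bases past, in HIST1H3E 1862 bases, in HIST2H2BE 1729 bases and in HIST1H2AC 1128 bases. In 10 genes the model ended within 100 bases of the stem-loop, as in HIST2H2AA3 and HIST2H2AA4, where 35 bases follow, and these took 12.4% of histone counts. The 39 genes with no match took 6.4%.

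Promoters were compared because the histone classes are known to share upstream elements. Promoters of 65 of the 74 genes were found in RefSeq (build GRCh38.p14), from 250 bases before to 50 after the start. Searched on both strands, TATAAA was in 66.2% of these and in 11.5% of all 35116 promoters. CCAAT was in all promoters of the H1, H2A, H2B and H3 genes but in 3 of 13 H4 promoters, against 34.6% of all promoters. The octamer ATTTGCAT, bound by POU2F1, was in 14 of 18 H2B and 11 of 16 H2A promoters, in 1 of 12 H3 promoters and in none of the H1 and H4 promoters, against 1.8% of all promoters. The H1 box AAACACA was in 6 of 6 H1 promoters, against 5.6% of all. The 250 bases before the start are shown for an H2B gene with 3 of the elements, HIST1H2BK (chr6:27146859-27147108, minus strand), and for an H4 gene with none of these letter strings, HIST1H4H (chr6:26285535-26285784, minus strand). Matches are in capitals, 2 TATAAA matches on opposite strands overlap in HIST1H2BK, and both genes were higher in S239D. A match is a description and not a site.
HIST1H2BK: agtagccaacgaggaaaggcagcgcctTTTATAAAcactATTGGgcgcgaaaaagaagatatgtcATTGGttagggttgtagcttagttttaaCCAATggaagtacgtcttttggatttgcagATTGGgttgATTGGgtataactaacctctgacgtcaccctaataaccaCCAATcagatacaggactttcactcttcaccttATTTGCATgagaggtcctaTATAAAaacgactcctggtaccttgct
HIST1H4H: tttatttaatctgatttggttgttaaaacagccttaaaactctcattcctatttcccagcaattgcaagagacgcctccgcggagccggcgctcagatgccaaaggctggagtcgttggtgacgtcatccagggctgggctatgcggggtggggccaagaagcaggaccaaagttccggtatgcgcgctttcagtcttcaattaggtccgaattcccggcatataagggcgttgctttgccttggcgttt

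Libraries held 5696840 to 9688577 expected counts. Pairs of libraries within a group that included S239A replicate 2 or S239D replicate 2 differed most, with a chi-square per degree of freedom of 9.15 to 15.7, against 1.90 to 2.48 for the other pairs. Counts from the mitochondrial genome were 4.72%, 6.01% and 4.90% of the total in S239D, 3.33%, 5.38% and 2.99% in S239A, and 2.99%, 2.83% and 3.04% in WT. Whether either fact has a part in the histone values was not tested beyond leaving those 2 libraries out. PDCD4 itself, whose counts can come from both the endogenous and the introduced gene, had 16.8, 17.1 and 17.0 CPM in S239D, 19, 23.1 and 25.0 CPM in S239A, and 24.1, 24.9 and 20.4 CPM in WT. CPM here are counts scaled to library size, after TMM normalisation. PDCD4 was lower in S239D than in WT (log2 fold change -0.44, SE 0.13, edgeR adjusted p = 0.0164), a call held in 15 of 19 settings and lost with limma on TPM (adjusted p up to 0.411) and without WT replicate 1 or 2.

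Histone RNA was scarce in these poly(A)-selected libraries and was highest in S239D. The 74 genes together took 0.0504%, 0.0520% and 0.0510% of counts in S239D, 0.0368%, 0.0310% and 0.0374% in S239A, and 0.0354%, 0.0369% and 0.0351% in WT. Every S239D library stood above the other 6. Summed over the genes this was 498, 518 and 506 CPM in S239D, 367, 326 and 371 CPM in S239A, and 354, 369 and 352 CPM in WT. The summed signal was 1.42-fold higher in S239D than in WT and 0.991-fold in S239A relative to WT, and the deposited TPM gave 1.42-fold and 0.992-fold. In a bulk sample, more cells of a kind and more RNA per cell cannot be told apart.

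The size of the difference varied between the histone classes, which was not tested. The H4 genes, whose product pairs with H3 in the core of the nucleosome, summed to 88.0 ± 4.4 CPM in S239D, 55.3 ± 5.9 CPM in S239A and 49.4 ± 3.1 CPM in WT (SD, n = 3 each), 1.78-fold higher in S239D than in WT. The H3 genes summed to 46.5 ± 3.6 CPM in S239D, 28.8 ± 1.5 CPM in S239A and 28.4 ± 1.3 CPM in WT, a 1.64-fold difference between S239D and WT. The H2B genes stood at 236 ± 7.1 CPM in S239D, 167 ± 5.6 CPM in S239A and 169 ± 8.6 CPM in WT, 1.39-fold higher in S239D than in WT. Much of that sum came from HIST2H2BC and HIST2H2BD, both described as pseudogenes. Together they had a mean of 108 CPM in S239D, 63.9 CPM in S239A and 64.5 CPM in WT. The classes were not summed without them, so the order of the classes may depend on these rows. For the H2A genes the sums were 122 ± 0.89 CPM in S239D, 90.6 ± 14 CPM in S239A and 97.1 ± 3.7 CPM in WT, a 1.25-fold difference between S239D and WT. In these 4 classes no S239D library overlapped a WT or S239A library. The linker H1 genes differed least, at 15.3 ± 1.8 CPM in S239D, 12.8 ± 2.4 CPM in S239A and 13.8 ± 0.87 CPM in WT. By CPM their libraries overlapped. By TPM they did not, with 55.1, 68.5 and 54.6 TPM in S239D, 53.7, 36.3 and 48.3 TPM in S239A, and 46.7, 53.5 and 50.7 TPM in WT.

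**Figure D1:**
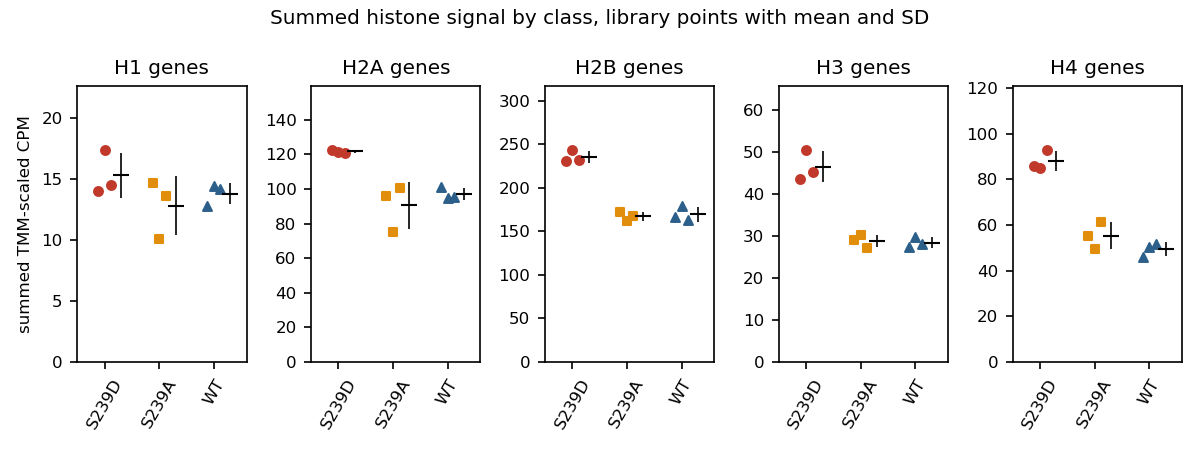
Summed TMM-scaled CPM of the H1, H2A, H2B, H3 and H4 genes in each library (points), with the mean and SD of the 3 libraries of each group beside them, each vertical axis starting at 0. The S239D points lie above all WT points for H2A, H2B, H3 and H4 genes, and for H1 genes the groups overlap.

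Most of the 74 genes were at or near the floor. In 10 genes no library had a count, in 18 more the 9 libraries together had fewer than 10 counts, and 31 passed the filter on low counts that edgeR applies before testing. A floor of 3 counts is 0.307 to 0.527 CPM per library, which covers counting error only. In S239D against WT, 11 of the 31 tested genes were higher and 0 were lower at an adjusted p under 0.05, while 19.7% of all 16213 genes tested were higher and 21.7% were lower. Those 11 were HIST1H2AC, HIST1H2AG, HIST1H2BK, HIST1H2BN, HIST1H3E, HIST1H3H, HIST1H4H, HIST2H2BC, HIST2H2BD, HIST2H2BF and HIST2H4A. At an unadjusted p under 0.05 there were 13, the 11 with HIST2H2BE (higher) and HIST1H2BG (lower). Over all 16213 genes tested there were 8017 at that threshold. The median log2 fold change of the 31 was 0.54, with a range of -1.10 to 1.65, against 0.00075 for all genes tested.

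Some of these genes share reads. HIST2H4A and HIST2H4B share 97.5% of the 50-base stretches of the shorter model, and HIST2H3A and HIST2H3C, like HIST2H2AA3 and HIST2H2AA4, share 100.0%. The deposited values of each copy were often not whole numbers, and for each pair the sum of the copies was whole in 9 of 9 libraries within 0.02 counts. HIST2H2BC and HIST2H2BD are not near-identical, sharing 16.5% of the stretches, but they overlap on opposite strands, and their sums were also whole in 9 of 9 libraries. How the estimate divides a pair therefore varied from library to library. HIST2H4B had 6.12, 0 and 26.8 CPM in S239D, 19.6, 22.1 and 15.1 CPM in S239A, and 9.21, 20.02 and 17.3 CPM in WT. HIST2H3A was listed at 0 in 2 S239A libraries and 1 WT library, and HIST2H3C at 0 in 1 S239D library. Each pair was therefore also tested as 1 row, a choice made after seeing the data, which left 27 histone rows, of which 11 were higher in S239D than in WT and 0 were lower.

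**Figure D2:**
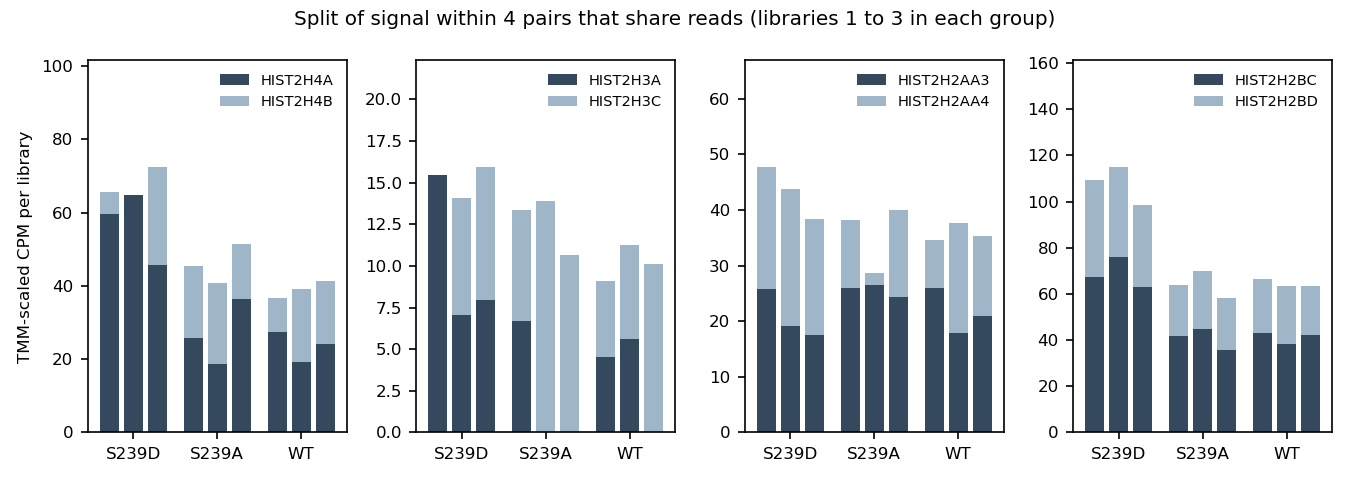
TMM-scaled CPM of the 2 genes of each of 4 pairs joined because they share reads, 3 of them near-identical copies, stacked in each library, with libraries 1 to 3 of each group from left to right. The division between the genes changes from library to library, while the height of the stack for HIST2H4A with HIST2H4B, and for HIST2H2BC with HIST2H2BD, is greater in every S239D library than in any other library.

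Of the 3 most abundant H2B rows, 2 were higher in S239D. HIST2H2BE, the most abundant single row by CPM, encodes an H2B and had 74.0, 81.0 and 83.1 CPM in S239D, 74.4, 63.7 and 73.0 CPM in S239A, and 65.8, 73.9 and 65.2 CPM in WT. All S239D values were above the highest WT value but overlapped those of S239A, and the difference from WT missed the threshold (log2 fold change 0.22, 95% interval 0.014 to 0.43, edgeR adjusted p = 0.0809). It passed in 2 of 19 settings, both of which leave out S239A replicate 2, with adjusted p-values of 0.0183 to 0.235 over all of them. HIST2H2BC and HIST2H2BD, both described as pseudogenes, summed to 109, 115 and 98.5 CPM in S239D, 63.7, 69.8 and 58.1 CPM in S239A, and 66.5, 63.6 and 63.4 CPM in WT. No S239D library overlapped the others, and the pair was higher in S239D than in WT (log2 fold change 0.74, SE 0.10, edgeR adjusted p = 3.67e-05). HIST2H2BC alone had 67.4, 76.1 and 62.9 CPM in S239D, 41.7, 44.7 and 35.9 CPM in S239A, and 43.1, 38.3 and 42.3 CPM in WT. HIST2H2BD had 42.1, 39.0 and 35.6 CPM in S239D, 22.0, 25.1 and 22.2 CPM in S239A, and 23.4, 25.3 and 21.1 CPM in WT. On the TPM scale HIST2H2BC showed no such difference, with 23.5 ± 3.7 TPM in S239D, 17.9 ± 7.5 TPM in S239A and 23.8 ± 7.4 TPM in WT, and limma on log2(TPM + 1) gave a log2 fold change against WT of 0.020 (adjusted p 0.973). HIST2H2BD kept its direction on that scale, with 27.8 ± 14 TPM in S239D, 14.0 ± 6.4 TPM in S239A and 14.1 ± 6.8 TPM in WT, but was not called (limma log2 fold change against WT 0.92, adjusted p 0.133).

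Other H2B genes were lower in abundance. HIST1H2BN spanned 8.08 to 11.0 CPM in S239D, 2.72 to 4.82 CPM in S239A and 3.17 to 5.79 CPM in WT, which did not overlap (S239D against WT log2 fold change 1.20, SE 0.26, edgeR adjusted p = 0.00201). HIST1H2BK, whose model holds no stem-loop, spanned 7.03 to 9.76 CPM in S239D, 3.32 to 6.30 CPM in S239A and 4.39 to 5.44 CPM in WT (log2 fold change 0.86). HIST2H2BF lay at 6.66 to 7.72 CPM in S239D, 3.44 to 4.44 CPM in S239A and 3.51 to 5.97 CPM in WT, and its call against WT (log2 fold change 0.74, edgeR adjusted p = 0.0184) was lost without S239D replicate 1 or 3 or WT replicate 1 or 3. HIST1H2BD, with 7.35 to 9.25 CPM in S239D, 6.05 to 8.11 CPM in S239A and 5.96 to 6.85 CPM in WT, was not called (log2 fold change 0.32, edgeR adjusted p = 0.179). The sharpest negative value among H2B genes was that of HIST1H2BG (log2 fold change -0.78, edgeR adjusted p = 0.0651), which was under 5 CPM in every library.

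Of the H4 genes, which encode 1 protein from many loci, HIST2H4A and HIST2H4B are a pair of copies. Together they had 65.8, 64.9 and 72.6 CPM in S239D, 45.4, 40.8 and 51.5 CPM in S239A, and 36.6, 39.2 and 41.5 CPM in WT. Their S239D and WT libraries did not overlap, and the sum was higher in S239D (log2 fold change 0.79, 95% interval 0.56 to 1.02, edgeR adjusted p = 5.58e-05). HIST2H4A as a row of its own had 59.6, 64.9 and 45.8 CPM in S239D, 25.8, 18.7 and 36.5 CPM in S239A, and 27.4, 19.1 and 24.1 CPM in WT, and its log2 fold change of 1.25 exceeds that of the pair. HIST1H4H lay at 14.3 to 15.3 CPM in S239D, 4.0 to 5.06 CPM in S239A and 5.96 to 7.73 CPM in WT. Its S239D libraries stood well clear of the rest (log2 fold change against WT 1.15, SE 0.17, edgeR adjusted p = 9.73e-05).

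Among H3 genes HIST1H3H had 16.2, 18.5 and 13.6 CPM in S239D, 9.01, 9.47 and 8.2 CPM in S239A, and 10.1, 11.1 and 10.2 CPM in WT. The lowest S239D library was above the highest WT library (log2 fold change 0.63, SE 0.15, edgeR adjusted p = 0.00463). HIST1H3E spanned 8.70 to 14.3 CPM in S239D, 5.04 to 6.56 CPM in S239A and 5.89 to 6.61 CPM in WT (log2 fold change 0.99). Limma on log2(TPM + 1) gave HIST1H3E a log2 fold change against WT of 0.75 but no call (adjusted p 0.236). The pair HIST2H3A and HIST2H3C was called as 1 row, with 14.1 to 16 CPM in S239D, 10.7 to 13.9 CPM in S239A and 9.10 to 11.4 CPM in WT (log2 fold change against WT 0.58, edgeR adjusted p = 0.00752), although neither copy was called by itself.

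The H2A genes were split. HIST1H2AC had 26.2, 24.9 and 29.1 CPM in S239D, 16.4, 16.6 and 16.1 CPM in S239A, and 20.9, 16.7 and 17.3 CPM in WT. S239D did not overlap either group (log2 fold change against WT 0.54, SE 0.12, edgeR adjusted p = 0.00318). HIST1H2AG had 8.94, 12.5 and 12.9 CPM in S239D, 8.52, 7.50 and 7.89 CPM in S239A, and 7.80, 7.02 and 6.57 CPM in WT. It was higher in S239D than in WT (log2 fold change 0.68, edgeR adjusted p = 0.00765). HIST3H2A, an H2A gene outside both large clusters, had 32.3, 34.5 and 32.0 CPM in S239D, 27.0, 18.4 and 30.4 CPM in S239A, and 32.5, 28.3 and 30.0 CPM in WT, and was not called (log2 fold change 0.12, 95% interval -0.20 to 0.44). The copies HIST2H2AA3 and HIST2H2AA4 together had 47.8, 43.8 and 38.3 CPM in S239D, 38.1, 28.6 and 40.1 CPM in S239A, and 34.7, 37.6 and 35.2 CPM in WT. That pair was not called either (log2 fold change 0.27, 95% interval -0.0049 to 0.55, edgeR adjusted p = 0.107).

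**Figure D3:**
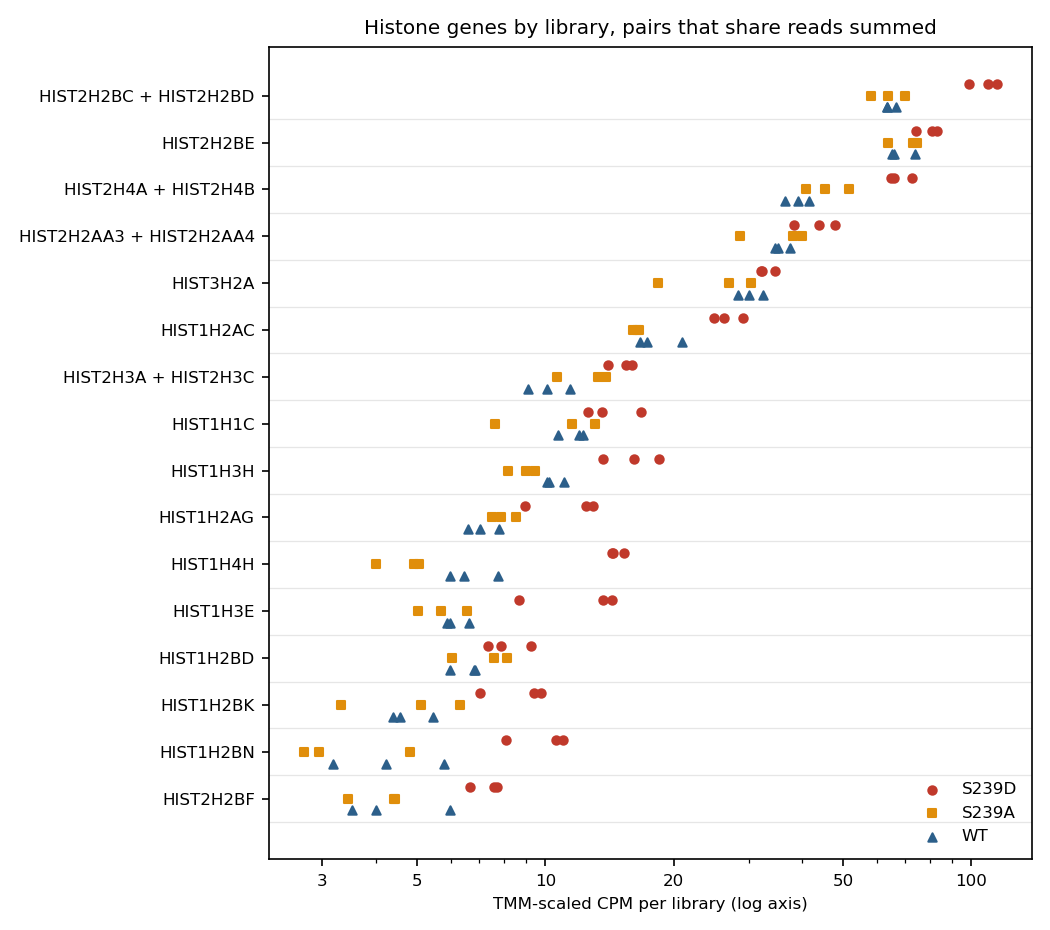
TMM-scaled CPM on a log axis of 16 histone rows in each library, with pairs that share reads summed; circles are S239D, squares S239A and triangles WT. HIST1H4H, HIST1H2BN and the HIST2H2BC pair show S239D clear of both other groups, while HIST2H2BE and HIST3H2A overlap between groups.

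The linker histone HIST1H1C, the best measured H1 gene, had 13.6, 16.8 and 12.6 CPM in S239D, 13.1, 7.62 and 11.6 CPM in S239A, and 10.7, 12.3 and 12 CPM in WT. It was not called (log2 fold change 0.30, 95% interval -0.11 to 0.70). HIST1H1E, under 2 CPM in every library, had the lowest log2 fold change of the 31, -1.10 (edgeR adjusted p = 0.182). Neither of the 2 tested H1 genes passed the threshold.

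Per length the order of the genes was different. By TPM, which divides by transcript length, HIST2H4A (152 ± 12 TPM in S239D, 85.1 ± 23 TPM in S239A, 75.1 ± 4.5 TPM in WT), HIST1H2BK (131 ± 30 TPM in S239D, 71.6 ± 18 TPM in S239A, 71.9 ± 2.6 TPM in WT) and HIST2H2AA3 (112 ± 25 TPM in S239D, 131 ± 8.2 TPM in S239A, 112 ± 20 TPM in WT) were among the highest levels. HIST2H2BE, first by CPM, was at 57.7 ± 4.5 TPM in S239D, 48.0 ± 4.1 TPM in S239A and 46.7 ± 3.3 TPM in WT. HIST1H2BK has a coding-only model of 381 bases, and a short model raises TPM.

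The calls fell mostly on genes whose models extend past the stem-loop, which are also most of the genes with enough counts to test. Of 22 tested genes with a transcript running 100 bases or more past it, 10 were higher in S239D than in WT. Over all genes tested, 19.7% were higher. Of 5 tested genes whose models end within 100 bases, 0 were called by edgeR (0 at an unadjusted p under 0.05, and 0 by DESeq2, which called the same 11 histone genes), and of 4 tested genes with no match 1 was, HIST1H2BK. Summed signal for extended models was 418 ± 12 CPM in S239D, 284 ± 14 CPM in S239A and 287 ± 7.9 CPM in WT, a 1.46-fold difference between S239D and WT. For models ending near the stem-loop it was 56.9 ± 3.2 CPM in S239D, 47.9 ± 6.9 CPM in S239A and 47.1 ± 2.1 CPM in WT (1.21-fold). For models without one it was 32.0 ± 0.93 CPM in S239D, 22.9 ± 3.8 CPM in S239A and 23.7 ± 1.6 CPM in WT (1.35-fold). Set against S239A, 10 of the 22 tested genes, 1 of the 5 (HIST2H2AA4) and 1 of the 4 were higher, beside 20.9% of all genes. With 5 and 4 genes, 0 or 1 call cannot be told from these shares. The 5 include the copies HIST2H2AA3 and HIST2H2AA4, which share reads. The difference between these sets was not tested.

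RNA that carries no poly(A) tail was read as a companion, since some of it passes bead selection. Of 28 rows for such RNA 3 could be tested, the signal recognition particle RNAs RN7SL1 and RN7SL2 and the transcription regulator RN7SK, and 0 were called in any comparison by edgeR (0 with an unadjusted p under 0.05). Their list summed to 94.4, 33.8 and 78.4 CPM in S239D, 62.0, 50.4 and 84.7 CPM in S239A, and 45.5, 56.2 and 65.5 CPM in WT. The groups overlapped, and by CPM S239D replicate 2 was lowest of all 9 libraries for this RNA but highest for histone RNA. By TPM that library was again lowest of all 9 for this RNA (1373 TPM). Its histone sum was then the lowest of the S239D libraries, which had 1164, 1038 and 1082 TPM. Polyadenylated and tail-less histone RNA cannot be told apart in these values.

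No histone gene passed the threshold between S239A and WT in any test run. At an adjusted p under 0.05 edgeR called 0 of the 31 histone genes, and 0.00617% of all genes tested were called in either direction. DESeq2 and limma also called 0, and 1 histone gene had an unadjusted p under 0.05, HIST1H4H, which had the lower value in S239A (log2 fold change -0.52, 95% interval -0.91 to -0.12, edgeR adjusted p = 0.377). The median log2 fold change was -0.095, against 0.0017 for all genes tested. Of all 16213 genes tested, 1583 had an unadjusted p under 0.05 in this comparison. For HIST2H2BE the interval of the log2 difference was -0.16 to 0.25, and for the HIST2H2BC and HIST2H2BD pair -0.22 to 0.19. Differences within these intervals are not excluded. As 1 row, HIST2H4A with HIST2H4B had the higher value in S239A (log2 fold change 0.23, 95% interval 0.0014 to 0.47, edgeR unadjusted p = 0.0488, adjusted p = 0.508). HIST2H3A with HIST2H3C stood at 0.31 (95% interval -0.020 to 0.65). The joined HIST2H2AA3 and HIST2H2AA4 stood at -0.0035, and HIST1H2AI with HIST1H2AJ at -0.27.

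**Figure D4:**
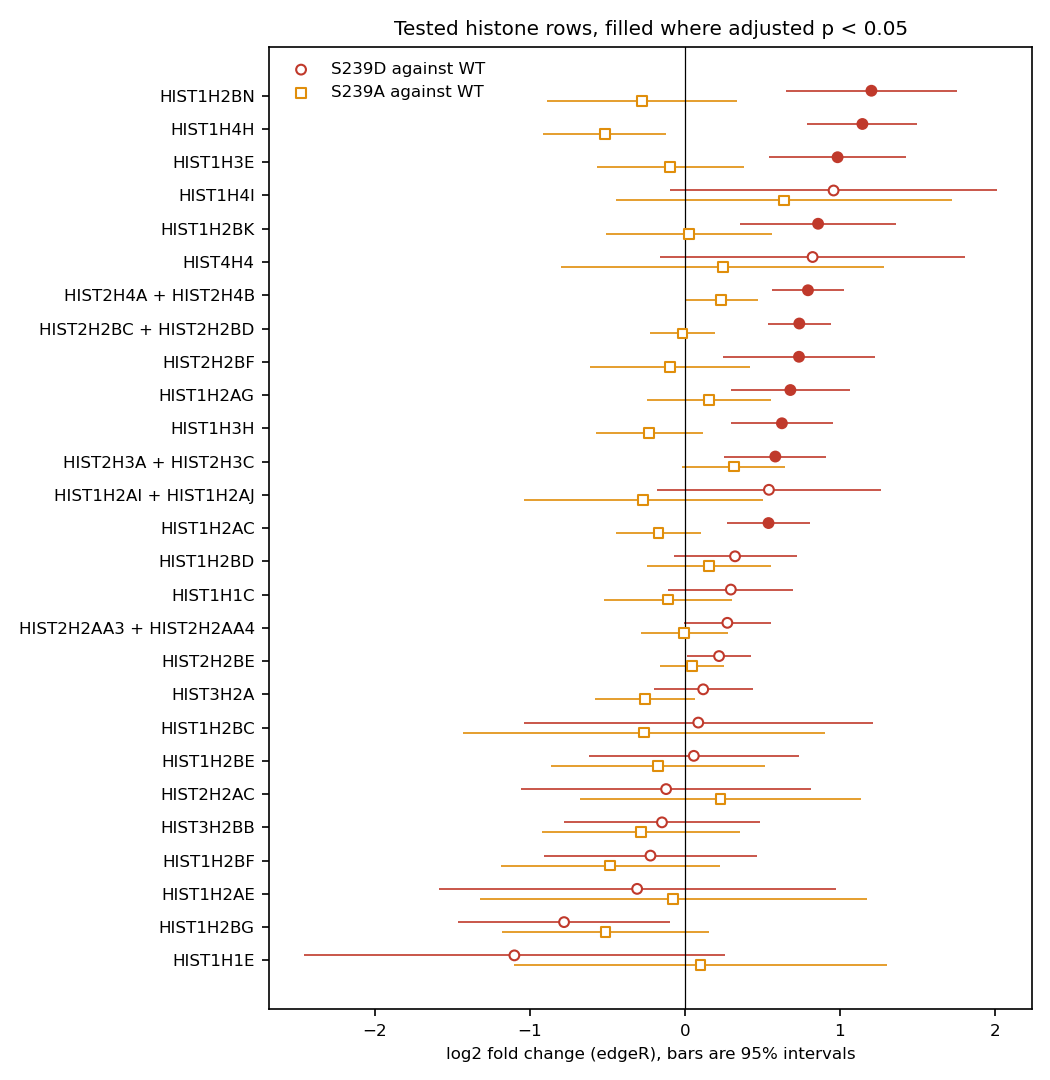
Log2 fold changes against WT with 95% intervals for 27 tested histone rows, pairs that share reads joined, for S239D (circles) and S239A (squares); filled symbols have an edgeR adjusted p under 0.05. In S239D 11 rows are filled, all to the right of 0, and in S239A none is.

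Set directly against S239A, S239D was higher in 12 of the 31 histone genes and lower in 0, while 20.9% of all genes tested were higher and 22.7% lower. These were the 11 genes that were higher than in WT, with HIST2H2AA4. At an unadjusted p under 0.05 there were 16, all higher, beside 8293 of all 16213 genes tested. The comparisons share the S239D libraries and are not independent. The largest called difference was that of HIST1H4H (log2 fold change 1.66, SE 0.17, edgeR adjusted p = 4.03e-06), followed by HIST1H2BN (1.48, SE 0.26, edgeR adjusted p = 0.000413). The HIST2H2BC and HIST2H2BD pair differed by 0.75 (edgeR adjusted p = 2.5e-05) and the HIST2H4A and HIST2H4B pair by 0.56 (edgeR adjusted p = 0.000724). HIST2H2AA4 had 21.9, 24.7 and 20.8 CPM in S239D, 12.1, 2.09 and 15.8 CPM in S239A, and 8.78, 19.7 and 14.3 CPM in WT, while its copy HIST2H2AA3 had 25.8, 19.1 and 17.5 CPM in S239D, 26.0, 26.6 and 24.3 CPM in S239A, and 25.9, 17.9 and 21 CPM in WT. As 1 row that pair did not pass (log2 fold change 0.28, edgeR adjusted p = 0.0969). Its call was also lost without any 1 of the 3 S239D libraries. The call of HIST1H2AG (log2 fold change 0.52, edgeR adjusted p = 0.026) held in 10 of 19 settings and was lost without S239D replicate 2 or 3 or S239A replicate 2 or 3. With the replicate number as a block, HIST3H2A also passed (log2 fold change 0.39, edgeR adjusted p = 0.0268, against 0.055 without the block).

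Histone genes outside this class were lower in S239D. The replication-independent histones, polyadenylated variants made outside S phase as well, had 8 of 10 tested genes lower and 0 higher in S239D against WT (0 at an unadjusted p under 0.05 as well), at a median log2 fold change of -0.64. Of all genes tested, 21.7% were lower and 19.7% higher. H2AFX, the variant phosphorylated at DNA breaks, had 245, 192 and 231 CPM in S239D, 388, 391 and 398 CPM in S239A, and 458, 433 and 458 CPM in WT (log2 fold change S239D against WT -1.01, SE 0.09, edgeR adjusted p = 1.32e-06). H2AFZ, the H2A.Z variant, had 315, 284 and 304 CPM in S239D, 424, 361 and 452 CPM in S239A, and 503, 469 and 441 CPM in WT (log2 fold change -0.65). The linker variant H1F0 (log2 fold change -0.91) and the centromeric H3 CENPA (-1.06) were also lower in S239D. Against S239A, again 8 of the 10 were lower in S239D and 0 higher, beside 22.7% and 20.9% of all genes tested.

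Genes of DNA replication, to which histone supply is normally coupled, were lower in S239D as well. Of 60 tested, 44 were lower and 2 higher than in WT, with a median log2 fold change of -0.42, and 30 were lower and 2 higher than in S239A. Of all genes tested, 21.7% were lower and 19.7% higher than in WT, and 22.7% were lower and 20.9% higher than in S239A. GINS2, a subunit of the replicative helicase, was lower than in WT by a log2 fold change of -0.96, and RRM2, the ribonucleotide reductase subunit, by -0.70. GMNN, which limits origin licensing, stood at -1.02, and the thymidine kinase TK1 at -0.75. Of 24 histone chaperone and chromatin assembly genes 13 were lower and 2 higher than in WT (median -0.32), among them the H3-H4 chaperone ASF1B (-0.84), RBBP4 of the CAF-1 complex (-0.43) and DAXX, a chaperone of H3.3 (-0.44), while ATRX, the partner of DAXX, was higher (1.0, edgeR adjusted p = 0.00012). Against S239A 11 of the 24 were lower and 3 higher.

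Genes that make and remove histone mRNA are set beside all genes tested, of which 19.7% were higher and 21.7% lower in S239D than in WT. Of 27 genes of histone transcription and pre-mRNA processing, 6 were higher and 5 lower (8 and 2 against S239A, with 20.9% and 22.7% of all genes). SLBP had 106, 113 and 111 CPM in S239D, 165, 129 and 164 CPM in S239A, and 180, 178 and 170 CPM in WT, and no S239D library reached either other group (log2 fold change S239D against WT -0.68, SE 0.10, edgeR adjusted p = 8.38e-05). NPAT had 26.6, 32.8 and 25.2 CPM in S239D, 26.7, 32.5 and 21.8 CPM in S239A, and 27.5, 28.6 and 30.4 CPM in WT, and was not called (log2 fold change -0.03). CDK2, the kinase that activates NPAT, was lower (-0.46), and the cap-binding subunit NCBP2 (0.52) and SYMPK, a scaffold of the cleavage complex (0.37), were higher. Of 15 genes of histone mRNA decay 5 were higher and 3 lower than in WT (5 and 2 against S239A). Nothing particular to these lists is read from their counts. The terminal uridylyltransferase TUT7 (0.69, not called by limma) and the exonuclease XRN1 (0.79) were higher, and LSM2 (-1.0) and LSM4 (-0.57), of the LSM ring, were lower.

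Of 15 cleavage and polyadenylation genes, 5 were higher and 2 lower in S239D against WT, beside 19.7% and 21.7% of all genes, and 8 were higher and 1 lower than in S239A, beside 20.9% and 22.7%. Their median log2 fold change against WT was 0.24, and 0.00075 over all genes tested. CPSF1, the large subunit of the factor that recognises the poly(A) signal, had 240, 214 and 230 CPM in S239D, 142, 129 and 140 CPM in S239A, and 119, 130 and 144 CPM in WT (log2 fold change S239D against WT 0.80, edgeR adjusted p = 1.07e-05). The termination factor PCF11 (0.76) and RBBP6 (0.56) were also higher, the second not with limma, and NUDT21, which favours distal sites, had a log2 fold change of -0.35 (edgeR adjusted p = 0.0106), but it did not pass in limma on log2(TPM + 1), at -0.084 with adjusted p 0.560, or without S239D replicate 3. In S239A against WT, 0 genes of any of these lists were called by edgeR. An unadjusted p under 0.05 was found for 19 of the 60 replication genes, 5 of the 15 decay genes and 5 of the 24 chaperone genes. It was also found for 3 of the 27 processing genes, 2 of the 10 replication-independent histones and 1 of the 15 cleavage genes. Over all genes tested the count was 1583 of 16213. Without S239A replicate 2 and S239D replicate 2, 874 of all genes were called in S239A against WT, against 1 with all libraries, and of these 23 were listed genes, 2 higher and 21 lower, and 0 were histone genes.

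**Figure D5:**
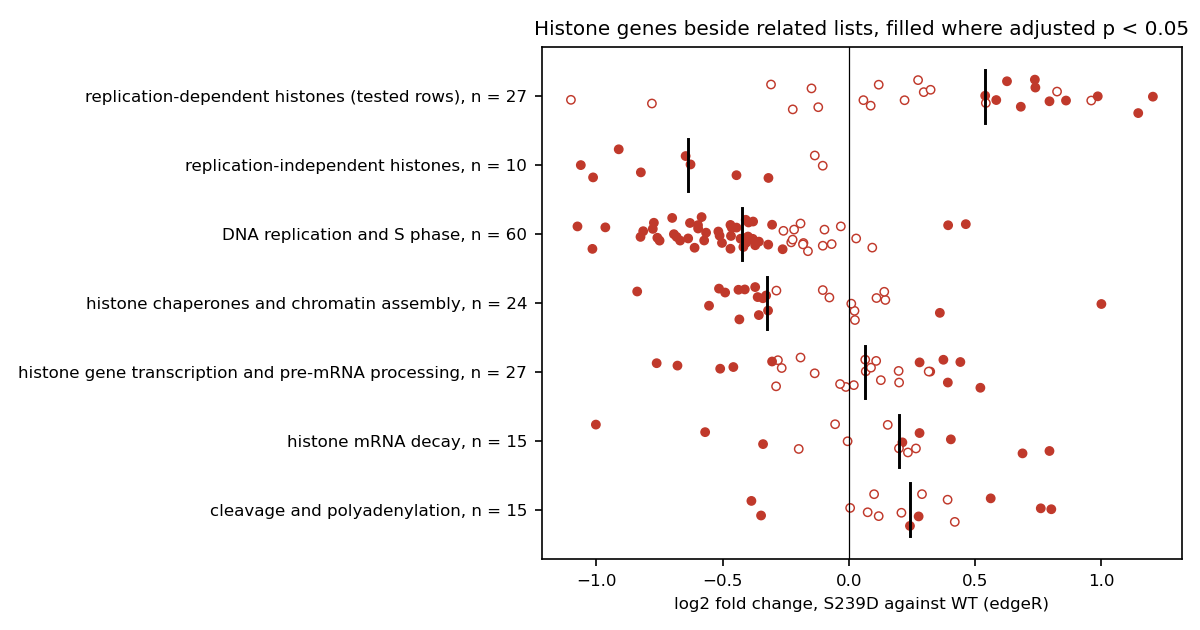
Log2 fold changes of S239D against WT (edgeR) for the tested rows of the replication-dependent histones, pairs joined, and of 6 related lists; each circle is 1 gene, filled at an adjusted p under 0.05, and the black bar is the median. The replication-dependent histones have a median of 0.54 and the replication-independent histones one of -0.64.

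Genes beside the histone clusters were compared with the rest of their chromosomes. Within 1 Mb of the HIST1 cluster (chr6:25726132-27893843 in the count table's coordinates), 38 other genes had a median S239D against WT log2 fold change of -0.16, with 6 higher and 9 lower, against -0.090 for 760 other genes of chromosome 6, with 112 higher and 218 lower. Around HIST2 (chr1:149782689-149888013), 32 other genes had a median of 0.26, with 12 higher and 3 lower, against 0.027 for 1599 other genes of chromosome 1, with 363 higher and 366 lower. HIST1 genes summed to 144 ± 8.7 CPM in S239D, 89.3 ± 5.9 CPM in S239A and 97.5 ± 2.4 CPM in WT, and HIST2 genes to 324 ± 6.0 CPM in S239D, 235 ± 11 CPM in S239A and 225 ± 7.6 CPM in WT. The part of the neighbourhood in the HIST2 values was not tested. The count table does not say whether strand was used in counting, and 9 of the 31 tested histone genes overlap another gene of at least 1 CPM, HIST2H4A with HIST2H3C among them, so overlapping genes cannot be told apart.

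The cells carried the markers of the labelled type. All 8 prostate epithelial markers were measured, and their sum was 3749 to 4118 CPM in S239D, 5354 to 6101 CPM in S239A and 5187 to 5315 CPM in WT. In S239D against WT 6 of the 8 were lower and 1 was higher, beside 21.7% and 19.7% of all genes tested. The log2 fold changes of the 8 ran from -1.25 to 0.43. Among the lower ones were KRT8 (log2 fold change -1.25), CDH1 (-0.65) and HOXB13 (-0.57). The 12 markers of other cell types summed to 45.0 to 55.0 CPM in S239D, 70.0 to 73.7 CPM in S239A and 62.2 to 74.8 CPM in WT, nearly all from COL1A1 and LUM. CD3E was at 0 in every library. Of 4 that could be tested 2 were lower in S239D than in WT, DCN (-2.22) and LUM (-0.90, not called by limma), and 0 were higher. The part of these markers in the histone values was not tested.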

How the data were processed

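Sequencing covered 9 libraries of 22Rv1 cells, made from poly-T selected RNA with random hexamers, per the labels' protocols. The authors deposited expected counts per gene and TPM, a level scaled within each library. Per the submitters' processing notes, the tools included Trimmomatic 0.39 and RSEM. Aligner, build and strand setting: not given in the sources used here.

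Expected counts were rounded and TMM-scaled, and 16213 genes passed filterByExpr. Two-sided edgeR 4.0.16 quasi-likelihood tests (R 4.3.3) used 1 fit of all 9 libraries with group means, Benjamini-Hochberg adjustment over all genes and a threshold of 0.05. The common biological coefficient of variation was 0.106. Rows with no symbol held 1.33% of counts and stayed in the fit. The test was checked on simulated data.

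Alternatives were RLE scaling, DESeq2 1.42.0, limma 3.58.1 with log2(TPM + 1) or log2(TPM + 0.1) (a minimum of 1 TPM in 3 libraries), 2 other filters, fits of 2 groups, a replicate block, left-out libraries and summed pairs that share reads, the last added after seeing the data. Pairs were summed where models shared 80% of 50-base stretches, or where both genes had values that were not whole in all 9 libraries. Of values above 0, 17.9% were not whole for histone genes and 10.5% for all genes (tolerance 0.005 counts).

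Deviations of same-numbered libraries from their group means correlated at 0.10, 0.25 and 0.10 between S239D and S239A. Unlike-numbered libraries of these groups correlated at -0.21 to 0.15, the highest being S239D replicate 1 with S239A replicate 3. The values therefore do not settle whether the numbers pair these groups. The reported fit used no pairing, and the replicate block was an alternative. For S239D with WT the same-numbered values were -0.0035, 0.010 and -0.0087, and for S239A with WT 0.025, 0.015 and 0.091. Unlike-numbered libraries of S239A and WT correlated at -0.054 to 0.025. Such small correlations do not settle whether the numbers pair either variant with WT.

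Histone genes were named if called in any comparison or at a mean of 5 CPM or more, with every library given for the 12 most abundant. Of each other list the 4 called genes with the smallest adjusted p for S239D against WT were named, with PDCD4, SLBP, NPAT, H2AFX and H2AFZ always. One gene that this rule chose is not reported here. The genes and lists were chosen with earlier results of these data known, and HIST1H2BG, HIST1H1E and CD3E were named after their values were seen.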

Additional observations from a re-analysis of the deposited data

How the results depend on the processing

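The 11 genes higher in S239D than in WT were also the calls with RLE scaling, DESeq2 and a filter of 1 CPM in 6 libraries. Limma on TPM called 8 of them (both pseudocounts), losing HIST1H3E, HIST2H2BC and HIST2H2BD. It tested 50 histone genes and called 4351 or 4284 genes in all. The reported fit tested 31 histone genes and called 6708 genes in all. No filter gave 16 calls among 64 tested histone genes, with 7029 genes called in all. Fits of the 2 groups gave 14 of 28 (6950 in all) and the replicate block 12 of 31 (7275 in all). Pairs that share reads summed gave 11 of 27 (6717 in all). Histone genes lower in S239D than in WT, 0 in the reported fit, numbered 1 with no filter, fits of the 2 groups, or without S239A replicate 2 or 3, and 2 without S239D replicate 3. Against S239A they numbered 1 with the block or without S239D replicate 1, and 2 with no filter or without S239D replicate 3. Leaving out each library gave 10 to 14 histone calls for S239D against WT, 11 to 15 for S239D against S239A and 0 for S239A against WT. In these fits 32 to 35 histone genes were tested. For S239D against S239A there were 10 calls of 31 tested with DESeq2 and 10 of 30 with fits of the 2 groups. Limma gave 9 of 50 and no filter 18 of 64. The replicate block gave 15 of 31, which added HIST2H3A, HIST2H3C and HIST3H2A, and under it NUDT21 also passed (edgeR adjusted p 0.0223). Calls over all genes in these fits ran from 4642 to 7610, against 7064 in the reported fit. Against WT the block added HIST2H3A. Listed genes called under the block numbered 94 for S239D against S239A (80 without it), 101 for S239D against WT and 0 for S239A against WT.

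Of listed genes, 94 were called in S239D against WT and 59 with limma at either pseudocount, and 80 were called in S239D against S239A and 46 with limma. In S239A against WT 0 listed genes were called, and 23 without replicate 2 of both variants, where 874 of all genes were called against 1 in the reported fit; the cause was not tested. Leaving out each library gave 76 to 103, 64 to 84 and 0 listed calls for S239D against WT, S239D against S239A and S239A against WT.

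The mean log2 ratio of the summed signal was 0.50 for S239D over WT, 0.56 without the highest gene, 0.44 without genes whose values were not whole, and 0.44 without genes described as pseudogenes, a choice made after seeing the data. For S239A over WT it was -0.015, and -0.15 without genes whose values were not whole. For S239D over S239A it was 0.52, and 0.60 without those genes. Leaving out each library gave 0.49 to 0.52, -0.049 to 0.044 and 0.46 to 0.55 for these ratios. Low counts limit the precision of the scarce histone genes.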
